A study of Mus musculus with 12 samples.

Results

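The comparison described here is that of clone 1 of a Bcat1 knockout with wild type (WT) in E14 mouse embryonic stem cells. It rests on 4 of the 12 samples of the series, chosen by their titles: 2 libraries of E14 WT and 2 of the first knockout clone, with 14946 of 52535 genes tested. The 2 libraries of a second knockout clone (clone 2) were used for the shared estimate of spread and for tests of what differed between the clones. The series also holds 6 time-course samples, not analysed here. All cells were cultured with serum, LIF and 2i, and total RNA was depleted of ribosomal RNA. Genotype was the only factor that the labels varied among these groups, and no drug, dose or time was named. Clone 1 is 1 clonal line, and the labels do not say whether its 2 libraries came from separate cultures. The p-values therefore measure only the spread between libraries, which may be technical, and knockout and clonal origin cannot be told apart.

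Bcat1 encodes the cytosolic branched-chain amino acid transaminase, which moves the amino group of leucine, isoleucine and valine onto 2-oxoglutarate to give glutamate and a branched-chain keto acid. Bcat2 encodes the mitochondrial enzyme. Mouse embryonic stem cells kept with LIF and 2i, the latter a pair of inhibitors of MEK and GSK3, hold a naive pluripotent state in which Pou5f1, Sox2 and Nanog act with factors such as Esrrb and Klf4. Most germline genes are kept silent in embryonic stem cells, in part by repressor complexes that bind their promoters.

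Bcat1 RNA did not report the label. Bcat1 (chromosome 6, 144993835 to 145076184, GRCm38) stood at 587 and 597 CPM (counts scaled to a common library total) in WT and at 642 and 684 in clone 1. Both clone 1 values were above both WT values, by 0.07 ± 0.07 (SE) on the log2 scale (adjusted p = 0.523, edgeR quasi-likelihood test). Bcat2 stood at 58.4 and 63.2 CPM in WT and at 59.1 and 69.7 in clone 1, which overlap. Counts over a whole gene cannot show a small deletion or frameshift, so every direction below rests on the label of the libraries labelled knockout.

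The stem cell markers were high in all 4 libraries. Pou5f1 stood at 467 and 538 CPM in WT and 353 and 496 in clone 1, Nanog at 606 and 619 against 784 and 694, and Esrrb at 791 and 853 against 767 and 822. Zfp42, another naive marker, lay between 751 and 783 CPM in all 4. Fibroblast and feeder markers, 16 genes, summed to 24.3 to 25.8 CPM in WT and 37.4 to 39.9 in clone 1. Of the 6 that were tested, 2 were called higher: Col1a2, with 1 count in WT and 37 in clone 1 (a ratio of 38.2, exact 95% interval 6.45 to 1550), and Thy1, from 2.18 and 3.30 CPM to 6.03 and 5.23 (adjusted p = 0.0311, and 0.235 without WT replicate 1). Most of that sum was Pdgfrb, at 18.7 to 20.1 CPM in WT and 25.2 to 25.3 in clone 1, while Acta2, Dcn, Fap, Lum, Postn, S100a4 and Twist2 were at 0 in all 4. The part of these cells in the results was not tested, and in bulk RNA fewer cells of a type and less RNA per cell cannot be told apart.

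Gene counts per library ranged from 12116149 to 13923262. Genes with at least 1 count numbered 20365 and 20687 in WT and 21878 and 21637 in clone 1, so more genes were detected in clone 1 at a lower total. The 2 libraries of clone 1 differed more from each other than those of WT, with a chi-square per gene of 8.79 against 3.57, and reads without a feature made up 5.35% of the first and 4.25% of the second. Transcripts of chromosome Y genes were near 0 in both groups: Eif2s3y stood at 0.752 and 0.287 CPM in WT and 0.248 and 0.0793 in clone 1, against 46.8 and 48.0 in clone 2. The part of this difference between lines in the comparisons with clone 2 was not tested. Intervals and floors given below cover counting error only.

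A gene is called here when its adjusted p is under 0.05. Clone 1 differed from WT at 3280 genes, 21.9% of those tested, with 1856 higher (12.4%) and 1424 lower (9.53%). The rises were larger than the falls. Among the genes that rose, 868 rose by at least 1 on the log2 scale and 317 by at least 2, with a median size of 0.93. Among those that fell, 203 fell by at least 1 and 36 by at least 2, with a median size of 0.46. The genes that rose had a median level of 11 CPM and those that fell one of 61.2 CPM. With genes put in 5 bins by level, 12.3% of the lowest bin rose and 1.74% fell, while 5.45% of the highest bin rose and 20.5% fell. Exonic length moved with the direction too: 7.15% of the shortest of 5 bins and 17% of the longest rose, and 9.89% and 8.38% fell. Without WT replicate 1 the calls numbered 1576 and without WT replicate 2 they numbered 1687. The split between directions depended on the scaling: with library totals alone, 2493 genes were called higher and 833 lower, and the median over all genes was 0.09 in place of -0.0010 on the log2 scale. With a replicate block 2137 genes were called lower, and without clone 1 replicate 2 there were 2148.

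**Figure D1:**
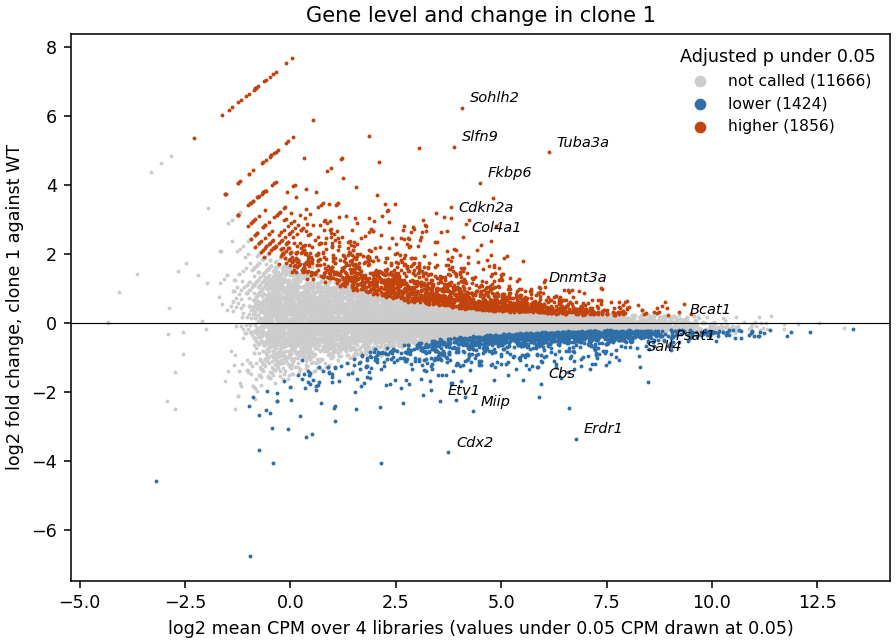
Each point is 1 of 14946 tested genes, with its mean level over the 4 libraries on the x axis (log2 CPM) and its log2 fold change of clone 1 against WT on the y axis. Coloured points are the 1856 genes called higher and the 1424 called lower, and the rises reach further from 0 at low levels than the falls.

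The largest rises started from very low levels in WT. Sohlh2, a germ cell transcription factor, stood at 0.226 and 0.575 CPM in WT and 32.3 and 33.8 in clone 1, a log2 fold change of 6.23 ± 0.26 (SE) with an adjusted p of 9.56e-11. Tuba3a, a testis alpha-tubulin, stood at 4.66 and 3.66 CPM in WT and 127 and 146 in clone 1, a rise of 4.94 ± 0.14. Tuba3b, its near-identical partner whose reads may be shared with it, had 0 counts in WT and 51 in clone 1, at least 17.6-fold higher with the floor taken as 3 counts over the group. Slfn9, of the Schlafen family, stood at 0.903 and 0.646 CPM in WT and 30.2 and 26.9 in clone 1. A lack of overlap between the groups was part of the rule that picked these genes, and it held for all 1856 genes called higher. Pkd2l1, a cation channel subunit, rose from 0.451 and 0.431 CPM to 14.9 and 17.6, and Dnajc5g from 0.226 and 0.0718 CPM to 8.09 and 6.10. The others among the 12 largest rises of mean CPM of 1 or more, predicted genes passed over, were Igfbp7, Nxf3, Cd3d, Tmem28, Sash3 and Fkbp6, with log2 fold changes from 4.07 to 4.77. Nxf3, related to nuclear RNA export factors, stood at 0.0752 and 0.503 CPM in WT and 9.24 and 7.29 in clone 1. Cd3d, known from the T cell receptor complex, stood at 0.150 and 0.144 CPM in WT and 2.72 and 4.75 in clone 1.

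The largest fall among genes of mean CPM of 1 or more, by the same rule, was that of Cdx2, the trophectoderm and intestinal homeobox factor. It stood at 28.1 and 21.7 CPM in WT and 2.39 and 1.51 in clone 1, a log2 fold change of -3.76 ± 0.28 with an adjusted p of 7.40e-08. Erdr1 fell from 184 and 214 CPM to 15.1 and 25.6; its position was not unique in the annotation, so its reads may be shared between copies. Miip stood at 33.9 and 34.4 CPM in WT and 4.95 and 7.21 in clone 1. Etv1, an ETS transcription factor, stood at 19 and 19.2 CPM in WT and 4.70 and 3.80 in clone 1. Aox3, an aldehyde oxidase, stood at 23.4 and 26.4 CPM in WT and 5.53 and 5.71 in clone 1. The rule took only genes whose groups did not overlap, as was so for 1410 of the 1424 genes called lower. The others among the 12 largest falls were Fv1, Ptgs1, Gna14, Enox1, Abcc12, Slc25a48 and Zbtb16, at -3.23 to -2.24. Of these, Zbtb16 lost its call without WT replicate 1 (adjusted p = 0.160), without WT replicate 2 (0.101), without clone 1 replicate 2 (0.179) and with DESeq2 (0.0745).

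Abundant genes moved by little. Of the called genes with the highest mean CPM, Eef2, the translation elongation factor, stood at 5356 and 5632 CPM in WT and 4593 and 5049 in clone 1, a fall of 0.28 ± 0.07 on the log2 scale. Without WT replicate 2 its adjusted p was 0.0821, and with library totals 0.0555. mt-Nd1, a mitochondrial complex I subunit, stood at 4094 and 3686 CPM in WT and 3273 and 3034 in clone 1. Of 14 mitochondrially encoded genes tested, 2 fell and 0 rose, where 9.53% of all genes fell and 12.4% rose. The falls were near that share. The other gene that fell, mt-Co2, had an adjusted p of 0.0314. That p was above 0.05 under 9 alternatives, among them 0.14 with library totals.

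Among the lists with at least 10 tested genes, germ cell regulators had the highest share of rises. Of 25 germ cell regulators in the files, 19 passed the filter on low counts, and 14 of those rose and 1 fell, against 12.4% and 9.53% of all genes. Their median log2 fold change was 1.74, and Tuba3b lies above that median at its floor too. Such genes often pass the filter through the group where they are high, so the share that rose among those tested is a description and not a test. The rises numbered 9 without WT replicate 2 and 13 without WT replicate 1. Summed over the list, levels were 73.7 and 62.6 CPM in WT and 307 and 324 in clone 1, and most of the difference was Tuba3a. Dazl, an RNA-binding protein of germ cell commitment, stood at 2.56 and 2.08 CPM in WT and 28.2 and 23.0 in clone 1, a log2 fold change of 3.37 ± 0.20. Prdm1, a repressor needed to specify primordial germ cells, stood at 1.96 and 1.87 CPM in WT and 12.6 and 12.5 in clone 1, a rise of 2.62 ± 0.22. In both genes the gap between the groups was larger than the gap between libraries of a group. The groups did not overlap, which was so for all 1856 genes called higher. Ddx4, the Vasa helicase, rose from 4.21 and 3.66 CPM to 9.24 and 9.19. In clone 2 Ddx4 stood at 3.34 in both libraries, and the test between the clones gave a log2 difference of 1.39 with an adjusted p of 0.000697.

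Among 25 meiotic chromosome genes tested of 34, 10 rose and 2 fell, with a median of 0.52, against 12.4% and 9.53% of all genes. The falls were near that share. Here too members may pass the filter through the group where they are high, so the share that rose is a description. The rises numbered 6 without WT replicate 1. Smc1b, the meiotic cohesin subunit, stood at 4.06 and 4.02 CPM in WT and 37.4 and 26.2 in clone 1, against 7.68 and 8.01 in clone 2. Its log2 fold change was 2.88 ± 0.20 against WT and 1.94 against clone 2, and both were called. Hormad1, of the chromosome axis, rose from 3.16 and 2.30 CPM to 12.7 and 14.3, and Tex14, of the germ cell bridge, from 15.2 and 14.1 CPM to 45.1 and 34.1. Stra8, known for meiotic entry, stood at 5.57 and 7.61 CPM in WT and 22.0 and 19.7 in clone 1. Of the synaptonemal complex genes, Syce1 rose from 3.84 and 2.87 CPM to 11.8 and 11.5. Sycp3 and Sycp1 did not pass: Sycp3 stood at 2.18 and 1.87 CPM in WT and 4.46 and 3.72 in clone 1 (adjusted p = 0.0624), and Sycp1 at 8.57 and 9.27 against 8.50 and 6.89. Hsf2bp fell from 109 and 114 CPM to 56.9 and 60.5, and it lies in the chromosome 17 stretch described further on.

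Of 23 genes of the piRNA pathway and the Tudor family, which silence transposons in germ cells, 19 were tested. Of those 10 rose and 2 fell, with a median of 1.14, against 12.4% and 9.53% of all genes. Some, such as Piwil1, could pass the filter only through clone 1, so the share that rose is a description and not a test. When WT replicate 1 was left out, 6 rose. Fkbp6, a co-chaperone of piRNA loading, stood at 2.71 and 2.08 CPM in WT and 42.9 and 42.6 in clone 1, a log2 fold change of 4.07 ± 0.17 with an adjusted p of 8.45e-11. Mov10l1, the piRNA helicase, rose from 1.58 and 1.65 CPM to 12.3 and 10.1, and Gpat2 from 15.6 and 18.8 CPM to 50.3 and 47.8. Piwil1, a PIWI protein, had 2 counts in WT and 36 in clone 1, a ratio of 18.6 with an exact 95% interval of 4.79 to 159. It stood at 1.57 and 1.35 CPM in clone 1.

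**Figure D2:**
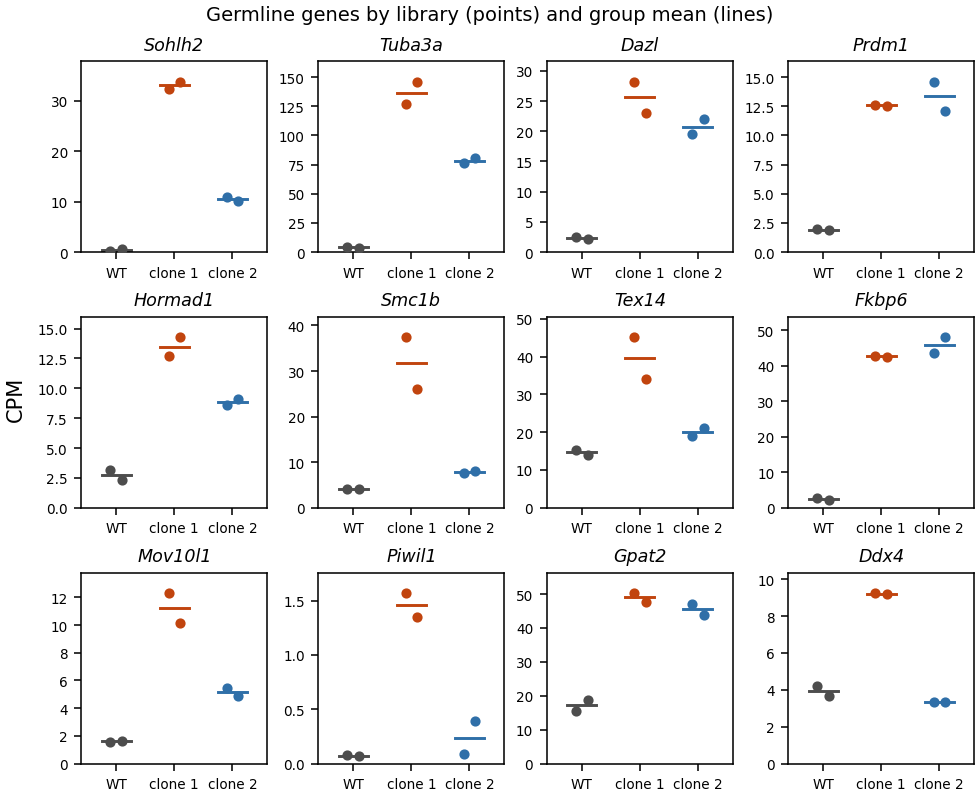
Each panel shows 1 germline gene, with CPM on a linear y axis from 0, a point for each of 2 libraries per group and a line at the group mean. Both clone 1 libraries lie above both WT libraries in all 12 genes, as in all 1856 genes called higher. Clone 1 levels run from Piwil1 at 1.57 and 1.35 CPM to Tuba3a at 127 and 146 CPM.

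Promoters of 5 of these genes are shown because germline genes were among the largest rises and part of the 3 germline lists shares a letter pattern. Windows run from 250 bases before to 50 after the transcription start (RefSeq, GRCm38.p6), 5′ to 3′ on the gene's strand, with each CACGTG in capitals. CACGTG is its own reverse complement, so a search of either strand gives the same matches. It is the E-box form that Max dimers are known to bind. The first 4 windows are those of the called genes with the largest fitted rises that hold it, and the last is that of the largest rise without it among genes with over 3 counts in WT.

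Fkbp6: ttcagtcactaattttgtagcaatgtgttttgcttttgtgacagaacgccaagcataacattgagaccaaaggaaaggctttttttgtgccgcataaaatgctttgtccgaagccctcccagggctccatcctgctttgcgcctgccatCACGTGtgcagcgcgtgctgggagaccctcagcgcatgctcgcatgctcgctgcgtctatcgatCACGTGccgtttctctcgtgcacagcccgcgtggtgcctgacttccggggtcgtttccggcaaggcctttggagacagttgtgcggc
Piwil1: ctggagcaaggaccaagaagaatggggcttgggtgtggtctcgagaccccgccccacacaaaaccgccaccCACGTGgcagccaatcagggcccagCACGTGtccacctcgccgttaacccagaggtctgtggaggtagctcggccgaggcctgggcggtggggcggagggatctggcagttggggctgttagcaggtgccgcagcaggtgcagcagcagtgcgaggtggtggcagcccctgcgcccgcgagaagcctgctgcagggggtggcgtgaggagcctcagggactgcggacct
Mov10l1: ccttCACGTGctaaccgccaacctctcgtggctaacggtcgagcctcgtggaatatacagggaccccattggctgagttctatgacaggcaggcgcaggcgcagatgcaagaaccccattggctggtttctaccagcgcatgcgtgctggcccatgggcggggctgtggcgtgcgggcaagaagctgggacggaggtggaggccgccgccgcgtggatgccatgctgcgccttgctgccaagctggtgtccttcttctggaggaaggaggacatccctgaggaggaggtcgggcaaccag
Taf7l: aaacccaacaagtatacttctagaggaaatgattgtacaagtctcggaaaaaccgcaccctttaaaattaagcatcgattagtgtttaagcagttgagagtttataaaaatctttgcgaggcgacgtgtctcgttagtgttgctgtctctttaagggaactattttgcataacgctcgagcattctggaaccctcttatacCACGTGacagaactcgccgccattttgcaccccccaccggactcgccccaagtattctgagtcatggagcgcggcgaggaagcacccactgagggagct
Sohlh2: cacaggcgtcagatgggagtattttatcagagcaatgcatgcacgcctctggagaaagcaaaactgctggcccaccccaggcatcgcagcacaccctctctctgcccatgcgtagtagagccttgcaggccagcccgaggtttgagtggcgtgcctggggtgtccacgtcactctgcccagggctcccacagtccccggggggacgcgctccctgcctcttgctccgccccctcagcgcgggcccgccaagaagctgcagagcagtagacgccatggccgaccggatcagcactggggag

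The windows lie at chr5:135349995-135350294 on the minus strand (Fkbp6), chr5:128735996-128736295 on the plus strand (Piwil1), chr15:88982744-88983043 on the plus strand (Mov10l1), chrX:134476441-134476740 on the minus strand (Taf7l) and chr3:55181794-55182093 on the plus strand (Sohlh2). Fkbp6 and Piwil1 each hold 2 matches, Mov10l1 and Taf7l 1 each and Sohlh2 0. Taf7l, a germ cell TFIID subunit, stood at 0.602 and 0.287 CPM in WT and 2.81 and 2.62 in clone 1. Of 32851 promoter windows in the table, 7.15% hold a match, and of 10456 tested genes with a window 11.8% do. Of the germline genes that rose, 29 had a window and 11 of those held a match (37.9%), while of those not called 6 of 19 did (31.6%) and of those that fell 0 of 4. Holding the pattern was therefore common in the lists whether or not the gene rose. Over all genes, 10.2% of those that rose and 15.6% of those that fell held it. A match is a description of letters and not a binding site. Max, whose product pairs with Mga on such promoters, fell from 106 and 103 CPM to 81.5 and 78.6, and Pcgf6 of the same complex from 74.7 and 65.9 CPM to 55.8 and 54.6. The adjusted p of Pcgf6 was 0.0918 without WT replicate 1. E2f6, also of that complex, rose from 26.6 and 25.5 CPM to 35.3 and 36.3 (adjusted p = 0.0282), and missed the threshold with WT replicate 1 (0.114) or WT replicate 2 (0.168) left out and with DESeq2 (0.0817). Mga stood at 265 and 259 CPM in WT and 347 and 252 in clone 1, and did not pass.

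Genes of the 2-cell-like state, a rare state with a transcript pattern of the early embryo, were at the edge of detection. Of 24 in the files, 4 passed the filter, and all 4 of those rose: Zscan4c, Zscan4d, Gm4340 and Gm8300. With 0 to 4 counts in WT they could pass the filter only through the knockout libraries, so that count was fixed by the filter and is no result. These are members of repeated clusters, so reads may be split among copies. Zscan4c had 0 counts in WT and 21 in clone 1, at least 7.23-fold higher, and stood at 0.825 and 0.872 CPM there. Gm4340 had 1 count in WT and 47 in clone 1, a ratio of 48.6 with an exact 95% interval of 8.30 to 1958. With either WT library left out, 1 of the 4 was called, and the adjusted p of Zscan4c was 0.0931 and 0.0929. Of 30 Rhox homeobox genes, a reproductive cluster on chromosome X, 2 passed the filter and both rose, which the filter fixed in the same way. Rhox13 had 2 counts in WT and 37 in clone 1, and Rhox1 2 and 30, and without WT replicate 1 the adjusted p of Rhox1 was 0.0828.

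Calls among pluripotency genes were mostly falls, where 9.53% of all genes fell and 12.4% rose. Of 12 core factors 6 fell and 1 rose, with a median log2 fold change of -0.31, and of 19 naive genes 9 fell and 1 rose, with a median of -0.25. Leaving out WT replicate 1 gave 3 falls of core factors and 6 of naive genes, and leaving out WT replicate 2 gave 3 and 5. Sall4, a zinc finger factor, stood at 395 and 404 CPM in WT and 203 and 228 in clone 1, a fall of 0.98 ± 0.08, and it lies in the chromosome 2 stretch described further on. Utf1 stood at 186 and 187 CPM in WT and 90.4 and 139 in clone 1, so the clone 1 libraries differed from each other, and in clone 2 it was lower still, at 47.4 and 58.1. Nr0b1, a naive factor encoded on chromosome X, fell from 90.2 and 92.8 CPM to 51.3 and 56.5, and at 79.3 and 87.1 in clone 2 it differed between the clones (log2 difference -0.70, adjusted p = 0.000142). Manba fell from 211 and 196 CPM to 122 and 108, Gbx2 from 33.1 and 32.5 to 20 and 24.2, and Tdh, the threonine dehydrogenase of mouse stem cells, from 446 and 447 to 316 and 362. Sall1 went the other way, from 79.1 and 74.0 CPM to 156 and 152. Nanog, Zfp42 and Esrrb did not pass, and Pou5f1 had an adjusted p of 0.0635. Sox2 fell from 647 and 675 CPM to 517 and 610, and its adjusted p was 0.0590 with WT replicate 1 left out, 0.116 with WT replicate 2 left out and 0.0589 with library totals.

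Of 16 tested genes of the formative and primed states, which follow naive pluripotency, 8 rose and 2 fell, with a median of 0.61; without WT replicate 1 the rises numbered 4 and without WT replicate 2 they numbered 5. Over all genes tested, 12.4% rose and 9.53% fell. Dnmt3a, a de novo DNA methyltransferase, stood at 35.4 and 42.2 CPM in WT and 86.1 and 80.4 in clone 1, against 41.7 and 39.2 in clone 2. Its log2 fold change was 1.01 ± 0.11 against WT and 0.97 against clone 2, and both were called. Sox4 rose from 2.93 and 3.73 CPM to 14 and 22.3, Sall2 from 4.21 and 4.81 to 15.8 and 13.6, and Zic2 from 16.2 and 14.7 to 25.4 and 33.4. Dnmt3b did not pass, at 121 CPM in both WT libraries and 140 and 127 in clone 1.

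Lineage genes were called in both directions, where 12.4% of all genes rose and 9.53% fell. Of 13 trophectoderm genes tested 4 rose (2 without WT replicate 2) and 3 fell, and the members went opposite ways: Cdx2 and Gata2 fell, the latter from 7.97 and 6.89 CPM to 2.39 and 2.14, while Eomes rose from 10.1 and 11.1 CPM to 18.7 and 24.1 and Ascl2 from 4.89 and 5.24 to 16.6 and 18. Krt8 did not pass, at 19.8 and 22.1 CPM in WT and 17.9 and 18.6 in clone 1. Of 9 endoderm genes 2 rose (1 with either WT library left out) and 1 fell. Lrp2, an endocytic receptor, rose from 2.56 and 1.72 CPM to 16.2 and 16.1, whereas Hnf4a fell from 10.7 and 11.6 to 5.78 and 5.31, and Gata6 was at 0.451 to 1.43 CPM in all 4 libraries. Of 6 mesoderm genes, Kdr rose from 0.376 and 0.575 CPM to 3.96 and 2.77 and the other 5 were not called. The neurofilament genes Nefl and Nefm and the factor Sox21 were the 3 of 7 ectoderm genes that rose, with Nefm at 7.37 and 5.17 CPM in WT and 17.6 and 16.9 in clone 1, against 114 and 106 in clone 2.

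The series title names Ras signalling, which carries growth factor signals through Raf, MEK and ERK. The counts below stand beside the shares over all genes, 12.4% higher and 9.53% lower. Of the classical Ras genes, Nras and Hras did not pass: Nras stood at 123 and 117 CPM in WT and 137 and 122 in clone 1, and Hras at 50.2 and 53.4 against 48.9 and 56.4. Eras, a Ras gene of embryonic stem cells, was at 3.52 to 4.52 CPM in all 4 libraries. Of 24 Ras family GTPases 5 rose and 0 fell, but without WT replicate 1 or without WT replicate 2 the rises numbered 1. Mras rose from 30.8 and 29.9 CPM to 57.5 and 53.2, a log2 fold change of 0.77 ± 0.11. Of 15 tested exchange factors and activating proteins, which switch Ras on and off, 7 rose and 0 fell, with a median of 0.34. Without WT replicate 2 the rises numbered 4. The list held members of both kinds. Sos2, an exchange factor, rose from 4.89 and 3.81 CPM to 14.4 and 11.8, Rasal1, an activating protein, from 7.30 and 5.96 to 15.7 and 18.9, and Iqgap2, a scaffold related to these proteins, from 27.1 and 27.4 to 49.4 and 46.4.

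Downstream, the Raf, MEK and ERK kinases gave 1 rise and 3 falls of 21, with 0 falls without WT replicate 2, 7 without clone 1 replicate 2 and 8 with a replicate block. Calls among these kinases were near the share over all genes, 21.9%. Of 20 ERK feedback inhibitors and ETS targets 7 fell and 1 rose, with a median of -0.25, against 9.53% and 12.4% of all genes. Etv1 is given above. Ccnd1, a G1 cyclin, fell from 191 and 192 CPM to 110 and 112, by 0.87 ± 0.08, and stood at 146 and 151 in clone 2. Myc, a growth factor target, stood at 15.5 and 17.5 CPM in WT and 5.12 and 7.05 in clone 1. Spry4, a feedback inhibitor, fell from 19.8 and 18.3 CPM to 12.9 and 11.7, while Dusp6, the phosphatase often used as an ERK readout, was not called at 13.4 and 13.9 against 10.6 and 13.0. Culture in 2i holds MEK inhibited, so these transcripts were measured under that inhibitor. Of 14 immediate early genes 3 rose (1 without WT replicate 1), and Ier3, from 11.8 and 16.6 CPM to 30.0 and 27.7, was among them.

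Genes of branched-chain amino acid breakdown changed at about the background share: 3 of 31 rose and 2 fell, and with either WT library left out 1 rose and 0 fell. The keto acid dehydrogenase subunits were not called, with Bckdha at 16.4 CPM in both WT libraries and 11.8 and 15.2 in clone 1, Bckdhb at 56.4 and 51.5 against 59.6 and 60.5, and Dbt at 44.5 and 46.3 against 57.6 and 47.8. Pcca, the propionyl-CoA carboxylase subunit, rose from 20.8 and 22.9 CPM to 34.0 and 31.7, and its adjusted p was 0.0986 without WT replicate 1. Oxct1, of ketone body use, rose from 74.9 and 72.3 CPM to 108 and 96.2, and its adjusted p was 0.0580 with WT replicate 1 left out and 0.0871 with WT replicate 2 left out.

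Of 24 enzymes of serine, glycine and folate metabolism 13 fell, 0 rose and 11 were not called, with a median log2 fold change of -0.32. Of all genes 9.53% fell and 12.4% rose. Against clone 2, where 6.62% of all genes were lower, 12 of the 24 were lower. The falls numbered 8 without WT replicate 1 and 7 without WT replicate 2. Psat1, the serine synthesis transaminase that uses glutamate, stood at 611 and 580 CPM in WT, 419 and 373 in clone 1, and in clone 2 at 715 and 679, a log2 fold change of -0.68 ± 0.08 with an adjusted p of 1.12e-05. The clone 1 libraries were the lowest of the 6. Ahcy, which clears S-adenosylhomocysteine, fell from 206 and 217 CPM to 139 and 156, with clone 2 at 211 and 209. Cbs, of transsulfuration, fell from 95.4 and 91.9 CPM to 27.2 and 30.7, by 1.78 ± 0.10, and it lies in the chromosome 17 stretch. Gcsh, of glycine cleavage, fell from 198 and 177 CPM to 138 and 129, but clone 2 was lower still, at 107 and 100. Phgdh, the enzyme that starts serine synthesis, did not pass against WT, at 169 and 179 CPM against 165 and 164, and neither did Shmt2.

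The integrated stress response is the ATF4 programme for amino acid shortage and protein stress. Of 24 of its regulators and targets 11 fell, 2 rose and 11 were not called, with a median of -0.26. Of all genes 9.53% fell and 12.4% rose. Against clone 2, where 6.62% of all genes were lower, 14 of the 24 were lower. The falls numbered 9 without WT replicate 1 and 11 without WT replicate 2. Atf4 itself fell from 391 and 403 CPM to 314 and 317, Trib3 from 74 and 80 to 43.8 and 56.3, and Chac1 from 31.1 and 39.1 to 20.1 and 24.2. In clone 2 Trib3 stood at 105 and 114 CPM and Chac1 at 50.9 and 50.5, and both were called higher there than in WT. Ddit3, which encodes CHOP, fell from 48.6 and 50.9 CPM to 32.8 and 35.5, and stood at 64.6 and 67.9 in clone 2, above WT. Nupr1, a stress-induced chromatin protein, fell from 59.0 and 63.3 CPM to 33.9 and 33.5, by 0.95 ± 0.11, with clone 2 at 62.3 and 70.0. Cebpb fell from 13.9 and 17.5 CPM to 4.46 and 4.20 and lies in the chromosome 2 stretch. Eif2ak2, an eIF2 kinase that responds to double-stranded RNA, rose from 20.4 and 18.8 CPM to 41.8 and 33.2.

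Transporters and glutamate enzymes showed falls in named members, where 9.53% of all genes fell and 12.4% rose. Of 27 amino acid transporters 7 fell and 4 rose (1 without WT replicate 1). Slc38a2, the adaptive glutamine carrier, fell from 266 and 259 CPM to 162 in both clone 1 libraries, with clone 2 at 279 and 258, and both tests called it. Slc7a3, a cationic carrier, fell from 129 and 119 CPM to 93.3 and 86.7, while Slc7a5, the leucine carrier, was not called at 332 and 353 against 399 and 431. Of 19 enzymes of glutamate, glutamine, alanine and proline 5 fell (3 without WT replicate 1) and 1 rose. Glud1, glutamate dehydrogenase, fell from 616 and 594 CPM to 425 and 419, and Ass1, of arginine synthesis, from 394 and 434 to 268 and 290.

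Of 30 genes of glycolysis and the hypoxia response 12 rose and 2 fell, with a median of 0.17, and against clone 2, where 7.71% of all genes were higher, 12 of the 30 were higher. The rises numbered 6 without WT replicate 1 and 9 without WT replicate 2. Slc16a3, the lactate exporter, stood at 107 and 112 CPM in WT and 234 and 222 in clone 1, against 135 and 149 in clone 2, a log2 fold change of 0.97 ± 0.08. The HIF hydroxylase genes Egln3 and Egln1, both known HIF targets, rose from 18.6 and 16.8 CPM to 48.6 and 43.8 and from 55.3 and 53.6 to 108 and 86.1. Eno3, the muscle enolase, rose from 6.84 and 8.19 CPM to 38.8 and 37.4, by 2.25 ± 0.16. Slc2a1, the glucose carrier, rose from 388 and 416 CPM to 576 and 567. The abundant glycolytic genes Ldha and Pgk1 and the HIF target Vegfa did not pass, with Vegfa at 148 and 147 CPM in WT and 130 and 135 in clone 1. Shares over all genes were 12.4% higher and 9.53% lower. In the TCA cycle 5 of 26 rose (2 without WT replicate 1) and 2 fell. Suclg2, the GTP-forming succinyl-CoA ligase subunit, rose from 39.0 and 36.6 CPM to 95.5 and 93.9, while Sucla2, the ATP-forming subunit, fell from 124 and 113 to 100 and 92.4 (adjusted p = 0.0818 without WT replicate 1). Me1, the cytosolic malic enzyme, rose from 50.9 and 50.3 CPM to 89.1 and 67.7.

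**Figure D3:**
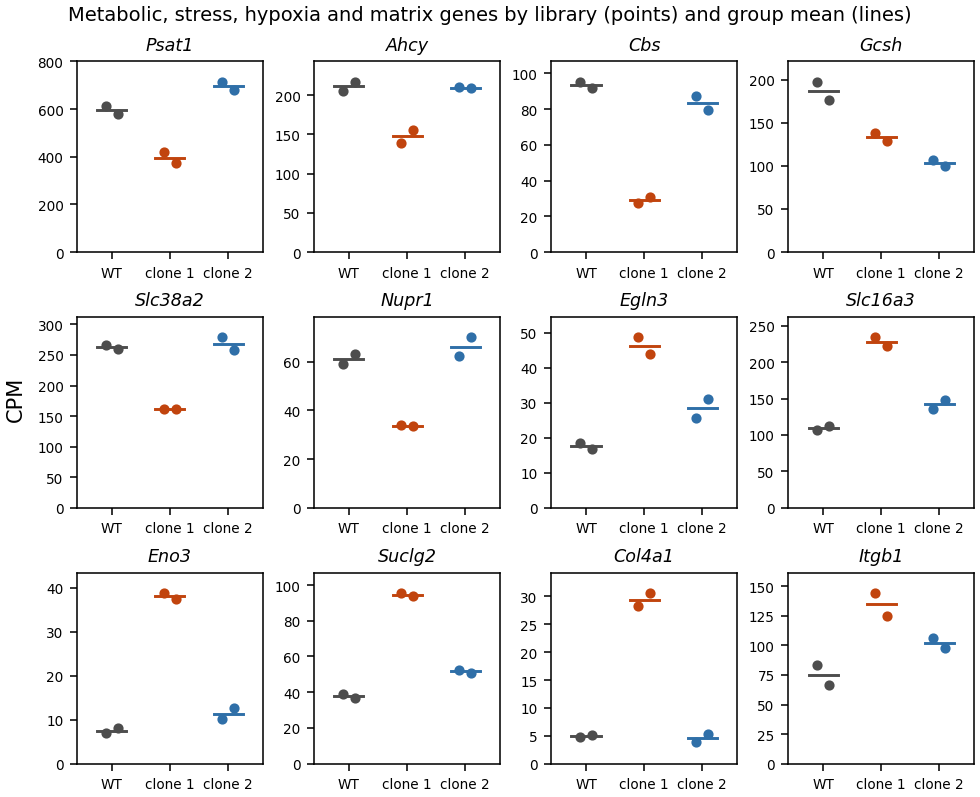
Each panel shows 1 gene of metabolism, stress, hypoxia or matrix, with CPM on a linear y axis from 0, a point for each library and a line at the group mean. Psat1, Ahcy, Slc38a2 and Nupr1 are lowest in clone 1 and near or above WT in clone 2, Gcsh is lowest in clone 2, and Col4a1 is high in clone 1 at 28.2 and 30.6 CPM.

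Calls among integrin and basement membrane genes were mostly rises, and adhesion genes went both ways. Shares over all genes were 12.4% higher and 9.53% lower against WT. Of 19 tested integrin subunits 10 rose and 0 fell, with a median of 0.75, and without WT replicate 1 or without WT replicate 2 the rises numbered 6. Itgb1, the most shared beta subunit, rose from 83.4 and 66.7 CPM to 144 and 125, Itgav from 42.6 and 39.7 to 68.3 and 64.3, and the leukocyte subunits Itgal and Itgb7 from 7.6 and 6.54 to 16.3 and 13.7 and from 5.57 and 6.97 to 11.8 and 15.1. Of 17 tested basement membrane genes 8 rose and 1 fell, with a median of 0.43. Against clone 2, 5 of the 17 were higher and 5 lower, where 7.71% and 6.62% of all genes were. Col4a1 and Col4a2, the paired chains of type IV collagen that share a promoter region, were higher in clone 1 than in WT and clone 2. Col4a1 stood at 4.74 and 5.17 CPM in WT, 28.2 and 30.6 in clone 1, and in clone 2 at 3.84 and 5.29, a log2 fold change of 2.48 ± 0.18 against WT and 2.61 against clone 2. Col4a2 stood at 3.23 and 5.39 CPM in WT, 12.1 and 18.7 in clone 1, and in clone 2 at 4.26 and 4.28. The laminin chain Lamb1 rose from 24.9 and 26.1 CPM to 46.5 and 44.2, with clone 2 at 24.6 and 26.7. Among 21 adhesion genes 7 rose and 4 fell, and leaving out WT replicate 2 gave 2 rises and 2 falls. Cdh1, E-cadherin, rose from 356 and 363 CPM to 597 and 567, and the desmosome gene Dsp from 18.9 and 22.3 to 56.5 and 51.1, while Dsg2 of the same junction fell from 125 and 113 to 88.6 and 83.8.

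For the cell cycle lists, the shares over all genes were 9.53% lower and 12.4% higher. Of 26 mitosis and spindle checkpoint genes 11 fell, 0 rose and 15 were not called, with a median of -0.19. The falls numbered 4 without WT replicate 1 and 5 without WT replicate 2. Aurka, a spindle kinase, fell from 236 and 231 CPM to 174 and 180, Cdc20, the activator of the anaphase-promoting complex, from 315 and 316 to 211 and 250, and Cenpa, the centromeric histone, from 217 and 214 to 147 and 158. DNA replication genes gave 6 falls and 2 rises of 32, with 2 falls and 0 rises without WT replicate 1. The inhibitors of cyclin-dependent kinases went in both directions. Cdkn2a, which encodes p16 and ARF, rose from 3.31 and 2.44 CPM to 21.6 and 28.4, by 3.03 ± 0.20, and Cdkn2c from 1.58 and 1.22 to 4.37 and 4.68. Cdkn1a, which encodes p21, fell from 171 and 187 CPM to 110 and 129 and lies in the chromosome 17 stretch.

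Other signalling lists held calls in both directions, where 12.4% of all genes rose and 9.53% fell. The rises in the Wnt, the BMP and Nodal and the LIF lists were near that share. Of 21 Wnt targets and TCF factors 5 fell (3 without WT replicate 2) and 2 rose, and the falls included Tcf7l1, the repressor of naive genes, from 114 and 111 CPM to 68.5 and 90.8, and Tcf7l2 from 14.3 and 16.0 to 7.59 and 9.51. Of 27 BMP and Nodal genes 5 fell and 4 rose, with 3 falls and 2 rises without WT replicate 1. Lefty2, a Nodal antagonist, fell from 39.0 and 41.1 CPM to 18.4 and 16.9 and Id4 from 13.5 and 15.4 to 6.52 and 5.63, while Skil rose from 38.1 and 37.0 to 96.8 and 67.6 and Smad3 from 14.7 and 13.4 to 31.6 and 29.6. Of 16 LIF and STAT3 genes 2 rose and 1 fell. Jak1, the kinase of the LIF receptor, rose from 49.1 and 50.6 CPM to 90.6 and 76.3, and Pim1 fell from 148 and 152 to 46.7 and 78.4, within the chromosome 17 stretch. Of 19 interferon response genes 6 rose and 1 fell, with a median of 0.37, and Ifi27 rose from 1.58 and 1.22 CPM to 5.86 and 5.47.

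Chromatin and imprinted genes were called in both directions, where 12.4% of all genes rose and 9.53% fell. The rises among Polycomb subunits were near that share. Of 31 Polycomb subunits, which silence developmental genes, 7 fell and 4 rose. Suz12, a core subunit of PRC2, fell from 390 and 343 CPM to 239 and 229, by 0.74 ± 0.08. Leaving out WT replicate 1 gave 2 falls and 1 rise. Trim28, the KAP1 corepressor, fell from 2223 and 2271 CPM to 1749 and 1938, by 0.38 ± 0.07. Of 23 genes of H3K9 methylation and E2F6 silencing 6 fell and 3 rose, but without WT replicate 1 there were 1 and 0, and without WT replicate 2 there were 2 and 0. Imprinted genes, which are expressed from 1 parental copy, gave 12 falls and 9 rises of 42. Peg3 stood at 53.4 and 58.7 CPM in WT, 31.7 and 27.1 in clone 1, and in clone 2 at 78.0 and 65.7. Plagl1 fell from 181 and 178 CPM to 120 and 110, with clone 2 at 179 in both libraries, and Grb10 from 69.1 and 67.7 to 24.5 and 21.6. Mest rose from 12.4 and 13.2 CPM to 48.6 and 39.3. Slc22a18 and Ascl2 rose: Slc22a18 stood at 0.301 and 0.359 CPM in WT and 4.95 and 6.18 in clone 1, against 0.334 and 1.01 in clone 2.

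**Figure D4:**
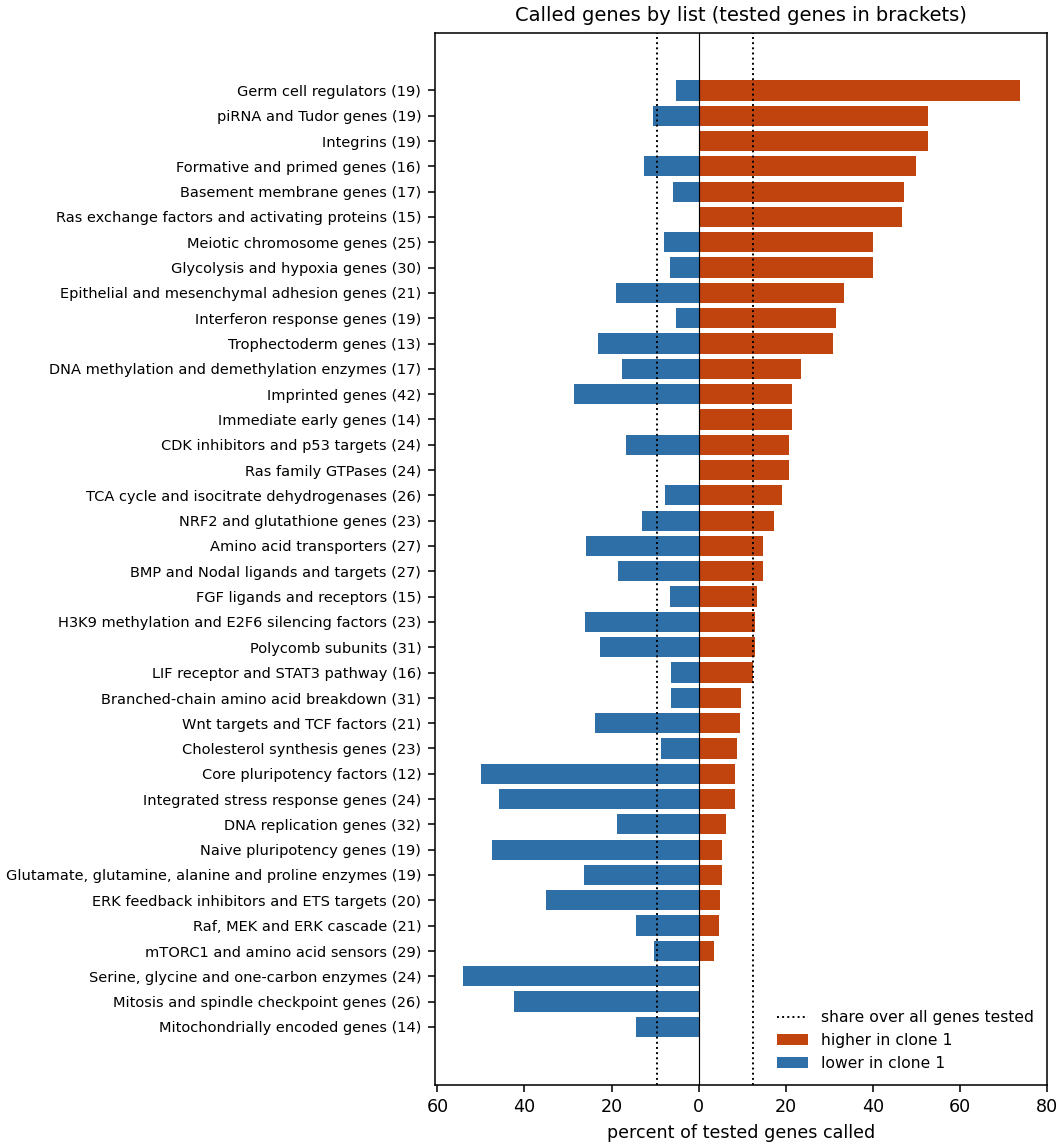
For each list with at least 10 tested genes, the bar to the right is the percent called higher in clone 1 and the bar to the left the percent called lower, with the number of tested genes in brackets and dotted lines at 12.4% and 9.53%, the shares over all 14946 genes. Germ cell, piRNA, integrin and formative lists reach furthest to the right, and serine, core and naive pluripotency, stress response and mitosis lists reach furthest to the left.

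Part of the falls lay side by side on 2 chromosomes. On chromosome 17, from Stk38 to Cd320 (28970880 to 33849774, GRCm38), 56 genes of mean CPM of 5 or more formed a run in which 55 fell and 0 rose, with a median log2 fold change of -0.95 and a range of -1.78 to -0.40. The median of the same genes in clone 2 against WT was -0.02, and 51 of the 56 were lower than in clone 2. The stretch holds Cbs, Cdkn1a, Pim1 and Hsf2bp. On chromosome 2, from Cse1l to Bcas1 (166906040 to 170427845), 24 of 27 such genes fell and 1 rose, with a median of -0.91, and in clone 2 the median was -0.82. This stretch holds Sall4, Snai1, Cebpb and Zfp64, which fell from 202 and 209 CPM to 85.2 and 106. The run criteria were set with the data known, so the counts inside the stretches are a description. Over all tested genes outside both stretches, 1855 rose and 1339 fell of 14839. DNA copy number was not measured in the files used here, and its part was not tested.

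**Figure D5:**
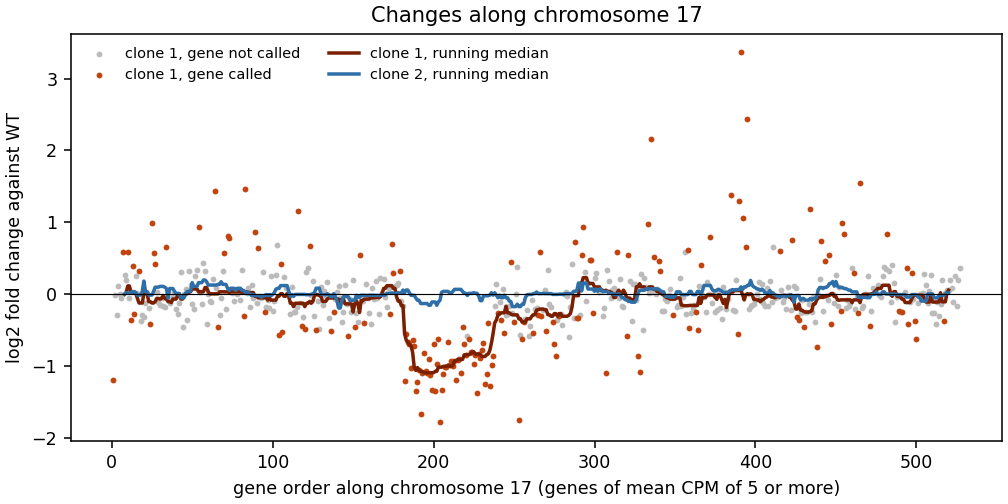
Each point is 1 gene of mean CPM of 5 or more on chromosome 17, in gene order on the x axis, with its log2 fold change of clone 1 against WT on the y axis, and the lines are running medians over 15 genes in each clone. One block of neighbouring genes lies near -0.95 in clone 1 while the clone 2 line stays near 0.

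Of all tested genes, 10.1% were called higher and 7.81% lower in clone 2 against WT, a comparison that shares its WT libraries with that of clone 1. Clone 1 also differed from clone 2, with 2141 genes called (14.3%), 1152 higher (7.71%) and 989 lower (6.62%). Without clone 2 replicate 1 the count was 974 and without clone 2 replicate 2 it was 1006. Among genes given above, Fkbp6, Dazl, Prdm1 and Gpat2 did not pass between the clones, with adjusted p values of 0.367, 0.355, 0.616 and 0.879. Their log2 differences were -0.17, 0.23, -0.16 and 0.04. Sohlh2 passed, at 10.9 and 10.2 CPM in clone 2, 1.58 lower on the log2 scale. Smc1b, Stra8, Ddx4, Col4a1, Dnmt3a, Psat1, Slc38a2 and Nupr1 passed as well. A p that misses the threshold does not show that the clones were alike at a gene.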

How the data were processed

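The deposited values are raw read counts for each gene, not normalised. According to the submitters' processing notes, the tools were HISAT2 2.1.0, HTSeq 0.9.1 and DESeq2 1.18.1, and mm10 was the build. For annotation and strand setting the answer is not given in the sources used here, so overlapping and antisense genes cannot be separated. The 5 HTSeq summary entries were left out; they comprised 4.14% to 5.35% of reads outside features, 6.96% to 9.10% ambiguous and 15.6% to 16.6% multiply aligned. Of 26926 genes with any count, 14946 passed filterByExpr. edgeR 4.0.16 (R 4.3.3) was fitted to 3 groups of 2 libraries, 6 libraries in all, with TMM factors. The two-sided quasi-likelihood F test was used, adjusted by Benjamini-Hochberg at 0.05. Log2 fold changes are on the TMM scale, and CPM is per library total of gene counts. A group with 0 counts was placed at a floor of 3 counts. Positions come from GENCODE M21. The fit was tested on simulated data.

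The rule for named genes took Bcat1 and Bcat2, the 12 largest rises and falls of mean CPM of 1 or more without overlap, passing over predicted genes, pseudogenes and small RNAs, 6 and 6 beyond clone 2, up to 4 called members per list with the smallest p, and the 6 most abundant called genes, 191 in all, of which the text prints a part. Other list members in the text were chosen after their values were seen. The comparison, the 45 lists and the rules were chosen with earlier results of these data known. The scan along chromosomes used a running median over 15 genes, a minimum of 0.4 and a run of at least 15 genes. Alternatives were other size factors, DESeq2 1.42.0, other filters, a minimum fold of 1.2, leaving out each library, a replicate block and a fit restricted to WT and clone 1. Figures used matplotlib 3.10.9. Some members of the lists are not reported here.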

Additional observations from a re-analysis of the deposited data

Results flagged for a closer look

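Among 189 named genes called against WT, 97 also passed the test of the difference between clone 1 and clone 2. Of all genes tested 14.3% passed it. Of the 1856 called higher against WT, 527 were higher and 61 lower than in clone 2. Of the 1424 called lower, 438 were lower and 48 higher. The naming rule took large changes and small p, and 12 genes for passing this test. The 97 are therefore no measure of how often the clones differed. Of the 97, 15 are given one by one. The clones were called in opposite directions against WT at 3 of them. The other 12 are the rises and falls named as beyond clone 2. Those were called with the same sign against WT and against clone 2, and were ranked by the smaller of the 2 changes. List members outside the named genes were not counted. Of those in the text, Peg3, Chac1, Trib3 and Ddit3 were also called lower in clone 1 and higher in clone 2, each against WT. Values are log2 differences of clone 1 minus clone 2 unless given as a fold, with adjusted p values from edgeR's quasi-likelihood test.

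Cdkn1a, which encodes p21, was 0.94 lower on the log2 scale in clone 1 than in clone 2 (-0.94 ± 0.09, adjusted p = 3.26e-06). It fell by 0.67 against WT in clone 1 and rose by 0.27 in clone 2. Btg2, an antiproliferative early gene, differed by 0.72 ± 0.11 (adjusted p = 0.000348), with 44.2 and 52.6 CPM in WT, 66.1 and 66.3 in clone 1, and in clone 2 at 39.9 and 36.6. Its call against WT was lost without WT replicate 1 (adjusted p = 0.294), without clone 2 replicate 1 (0.0502), with DESeq2 (0.0517) and with a minimum fold of 1.2 (0.300). Uba1y, on chromosome Y, had 0 counts in clone 1, 6 in WT and 196 in clone 2. It was at least 68.5-fold lower in clone 1 than in clone 2 with the floor at 3 counts over the group. It could pass the filter only through clone 2, so that difference was fixed by the filter. Its call against WT, at an adjusted p of 0.0473, was lost when any 1 library was left out. It was also lost with DESeq2 (0.0713), upper-quartile factors (0.0517), library totals (0.0514) and a minimum fold of 1.2 (0.0799).

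Of the genes higher in clone 1 than in both WT and clone 2, Slfn9 differed by 3.07 ± 0.19 (adjusted p = 2.77e-08), Slc22a18 by 2.94 ± 0.44 and Cpn1 by 2.64 ± 0.36. Cpn1 stood at 5.94 and 6.82 CPM in clone 1 and at 0.777 to 1.17 CPM in the other 4 libraries. Gpld1 differed by 3.80 ± 0.71, Nat8l by 2.66 ± 0.61 and Tie1 by 2.72 ± 0.64. These 3 were at low levels, and Gpld1 had 47 counts in clone 1 and 3 in clone 2, a ratio with an exact 95% interval of 4.81 to 75.1. Without clone 2 replicate 2 the adjusted p was 0.0775 for Nat8l and 0.133 for Tie1, and without clone 1 replicate 2 it was 0.0956 for Tie1.

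Of the genes lower in clone 1, Cbs differed by -1.60 ± 0.11 (adjusted p = 4.37e-08), Erdr1 by -2.24 ± 0.17, Miip by -1.63 ± 0.18, Etv1 by -1.60 ± 0.19 and Slc25a48 by -1.99 ± 0.28. Miip stood at 4.95 and 7.21 CPM in clone 1, 17.1 and 18.7 in clone 2 and 33.9 and 34.4 in WT. Fv1 differed by -2.12 ± 0.63 at an adjusted p of 0.0309, and without clone 2 replicate 2 that p was 0.306.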

How the results depend on the processing

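Of 189 named genes called against WT, 128 kept the call and direction under every alternative that gave them a value (up to 15 a gene), 61 lost the call under at least 1, and 0 changed direction. A minimum fold of 1.2 took the call from 42 of them, leaving out WT replicate 1 from 40 and leaving out WT replicate 2 from 39. With that minimum fold 1661 genes differed from WT and 999 from clone 2. Leaving out each library in turn gave 1576 to 4310 genes against WT, the highest without clone 1 replicate 2, and 974 to 3155 against clone 2. A lone library in a group was then assumed to vary like the other groups. DESeq2 called 2420 genes against WT, all of them among the 3280, and the fit of the 4 libraries compared called 2795. The replicate numbers share only a number: the differences between replicate 1 and 2 correlated across genes at 0.0513 between WT and clone 1, -0.0125 between WT and clone 2 and 0.125 between the clones. With a replicate block 4410 genes were called against WT and 3007 against clone 2. With 2 libraries a group, small changes at low levels may have been missed, and how detection varied with level was not tested. In the lowest of 5 level bins, which ends at 2.52 CPM, 12.3% of genes rose and 1.74% fell. The causes of the shifts between settings were not tested.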
